A study of Mus musculus with 4 samples.

Results

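The genes described here are 10 components of the pathway that makes microRNAs and carries out their silencing, in mouse embryonic stem cells after knockdown of the long noncoding RNA Cyrano. They were chosen by name, as the rows Drosha, Dgcr8, Xpo5, Dicer1, Tnrc6a, Tnrc6b and Tnrc6c and Argonaute 1 to 3, which the files list as Eif2c1, Eif2c2 and Eif2c3 and which are called Ago1, Ago2 and Ago3 below. All 10 were found among the 23366 gene symbols of the count files, and all 10 passed the filter on low counts. The cells were R1, an embryonic stem cell line of strain 129X1 x 129S1, kept on gelatin in medium with serum, serum replacement and LIF. In the control group the genotype label reads non-targeting control, and in the knockdown group it reads shRNA Cyrano knockdown, with 2 libraries in each. Both groups received a short hairpin from a pSicoR-Ef1a-mCh-Puro vector by lipid transfection and were enriched for transfected cells with puromycin or by flow cytometry, so the controls also carry a transfected hairpin vector. Which libraries had which enrichment is not given. Polyadenylated RNA was sequenced, which measures the messages of the machinery and not the mature microRNAs or the proteins.

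MicroRNAs are made in steps. In the nucleus, DROSHA and its RNA-binding partner DGCR8 form the Microprocessor, which cuts a hairpin out of the primary transcript, and exportin 5, the product of Xpo5, carries the hairpin to the cytoplasm. There DICER1 trims it to a short duplex, and one strand is loaded into an Argonaute protein. Argonaute finds messages that pair with the microRNA seed, bases 2 to 8, and a TNRC6 (GW182) scaffold protein bound to it recruits the deadenylases that start the decay of the message. Embryonic stem cells that lack Dgcr8 or Dicer1 survive but differentiate poorly.

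Cyrano carries a site for miR-7 with pairing far beyond the seed. The 2 forms of mature miR-7 are given with the seed in capitals, as RefSeq lists them on GRCm38.p6, followed by the Cyrano site, which is on GRCm38 at chr2:119602137-119602161 on the plus strand, with the match to the seed in capitals. Of the 15 bases of miR-7a beyond base 8, 14 were matched in the Cyrano site when 2 bases were skipped next to the seed match.

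mmu-miR-7a-5p: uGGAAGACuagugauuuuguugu
mmu-miR-7b-5p: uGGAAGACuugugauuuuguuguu
Cyrano site: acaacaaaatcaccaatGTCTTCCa

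The longest annotated 3′ UTR of each member was searched, on the sense strand, for GTCTTCC (seed bases 2 to 8) and TCTTCCA (bases 2 to 7 and an A), which overlap by 6 bases and were counted once where both stood together. There were 4 matches in Tnrc6b, 2 in Ago2, 1 each in Tnrc6a, Ago1 and Ago3, and 0 in Tnrc6c, Dicer1, Drosha, Dgcr8 and Xpo5. Of 12572 tested genes with a 3′ UTR, 26.2% held a match. Long 3′ UTRs hold more: among genes with a 3′ UTR of like length (0.8 to 1.25 times), 83.3% held one for Tnrc6b, 81.6% for Ago2, 39.5% for Tnrc6a and 40.3% for Tnrc6c. The matches of Tnrc6a and Ago2 are shown because these were among the 3 members with the lowest levels relative to control, and those of Ago1 and Ago3 because they pair with base 8. Capitals mark the match.

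Tnrc6a, chr7:123193704-123193725, plus strand: aaaaaaaatgtttacTCTTCCA
Ago2, chr15:73105737-73105758, minus strand: atggaatttatttatTCTTCCA
Ago2, chr15:73100763-73100784, minus strand: ttttggggggtgtcaTCTTCCA
Ago1, chr4:126438789-126438810, minus strand: ggtgacatgaccctGTCTTCCt
Ago3, chr4:126341159-126341180, minus strand: ttaacttgagtgagGTCTTCCt

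The same 3′ UTRs were searched for matches to let-7, which accumulates as stem cells differentiate, and to the seed shared by miR-294 and miR-295. Both belong to the miR-290 to miR-295 cluster, abundant in embryonic stem cells, and no other seed of the cluster was searched. A mature let-7 sequence and that of miR-294 are shown with the seed in capitals. let-7 matches, counted in the same way, numbered 4 in Ago2, 3 in Ago3, 1 each in Tnrc6a, Tnrc6b and Ago1, and 0 in the other 5 members. Of 3′ UTRs of like length, 79.6% held a let-7 match for Ago2. miR-294 matches numbered 3 in Ago3, 2 each in Tnrc6b and Ago1, 1 each in Tnrc6c and Dicer1, and 0 in Ago2, where 89.8% of 3′ UTRs of like length held one, and in the other 4. A let-7 match in Ago2 that pairs with base 8 and ends in an A follows the microRNAs.

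mmu-let-7a-5p: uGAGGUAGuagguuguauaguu
mmu-miR-294-3p: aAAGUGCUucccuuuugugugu
Ago2, chr15:73097982-73098003, minus strand: tttacaatgtggatCTACCTCA

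The counts over genes summed to between 16854403 and 22321102 reads in a library. Cyrano, listed as 1700020I14Rik, had 407 and 286 reads in control libraries 1 and 2 and 89 and 68 in knockdown libraries 1 and 2, and the knockdown stood at -2.48 ± 0.30 (SE) on the log2 scale (adjusted p = 0.0070 by edgeR). By limma-voom it missed the threshold (adjusted p = 0.051), as it did without control library 1 (0.12) or control library 2 (0.057). The targeted RNA matched the labels of all 4 libraries. The 10 pluripotency markers, led by Esrrb, were read in all 4 libraries. They summed to 4796 and 4899 CPM (gene counts scaled to a common, composition-corrected library size) in the controls and 4671 and 4406 CPM after knockdown. In the fit 5 of the 10 lay above 0 on the log2 scale and 5 below. With an unadjusted p under 0.05, 2 were lower and 1 higher, against 5.43% and 6.18% of all tested genes. Of 10 fibroblast markers, Col3a1, Postn, Lum and Dcn had no read in any library and the sum lay between 27.8 and 54.8 CPM. Trophectoderm markers (8) summed to between 53.8 and 63.8 CPM, neural markers (8, with Dcx at 0 reads) to between 188 and 225 CPM, and mesoderm markers (8) to between 12.0 and 27.1 CPM. With an unadjusted p under 0.05, 2 of 7 tested neural markers were higher and 1 lower, and none was called. Among 5 tested fibroblast markers 4 lay below 0 on the log2 scale, 1 of them with such a p. None of 7 tested trophectoderm or 3 tested mesoderm markers had such a p. Primitive endoderm markers, led by Col4a1, summed to 967 and 806 CPM in the controls and 1267 and 1005 CPM after knockdown. All 9 of them lay higher after knockdown in the fit, beside 6575 of 13199 tested genes. Of these 9 markers, 5 had an unadjusted p under 0.05, against 6.18% of all tested genes that were higher with such a p. The part of such cells in the levels described here was not tested. Fewer cells of a type and less RNA per cell cannot be told apart in bulk RNA.

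Per transcript length, Drosha stood far above the rest of the machinery. Its level averaged 73.9 RPKM (CPM divided by kilobases of annotated exon, mean of the 4 libraries), with a range of 66.1 to 83.4, above 93.4% of tested genes. Xpo5 followed at 24.3 RPKM, with a range of 22.7 to 25.7. The ranges of these 2 genes did not overlap each other or that of the next gene. Below them came Ago2 (16.7 RPKM), Ago1 (14.9), Dgcr8 (13.4), Tnrc6c (11.3) and Tnrc6a (10.2), and each overlapped its neighbour in this order. Dicer1 (5.32 RPKM) and Tnrc6b (3.84) overlapped each other, and Dicer1 lay below every value of Tnrc6a. Ago3 was lowest, at 0.609 RPKM with a range of 0.529 to 0.686. These levels divide by exon lengths of a later annotation than the one counted, so that a long 3′ UTR not counted by the authors would lower a value, as could be so for Ago2, Ago3 and Tnrc6b, whose annotated 3′ UTRs span 11064, 12742 and 11609 bases.

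**Figure D1:**
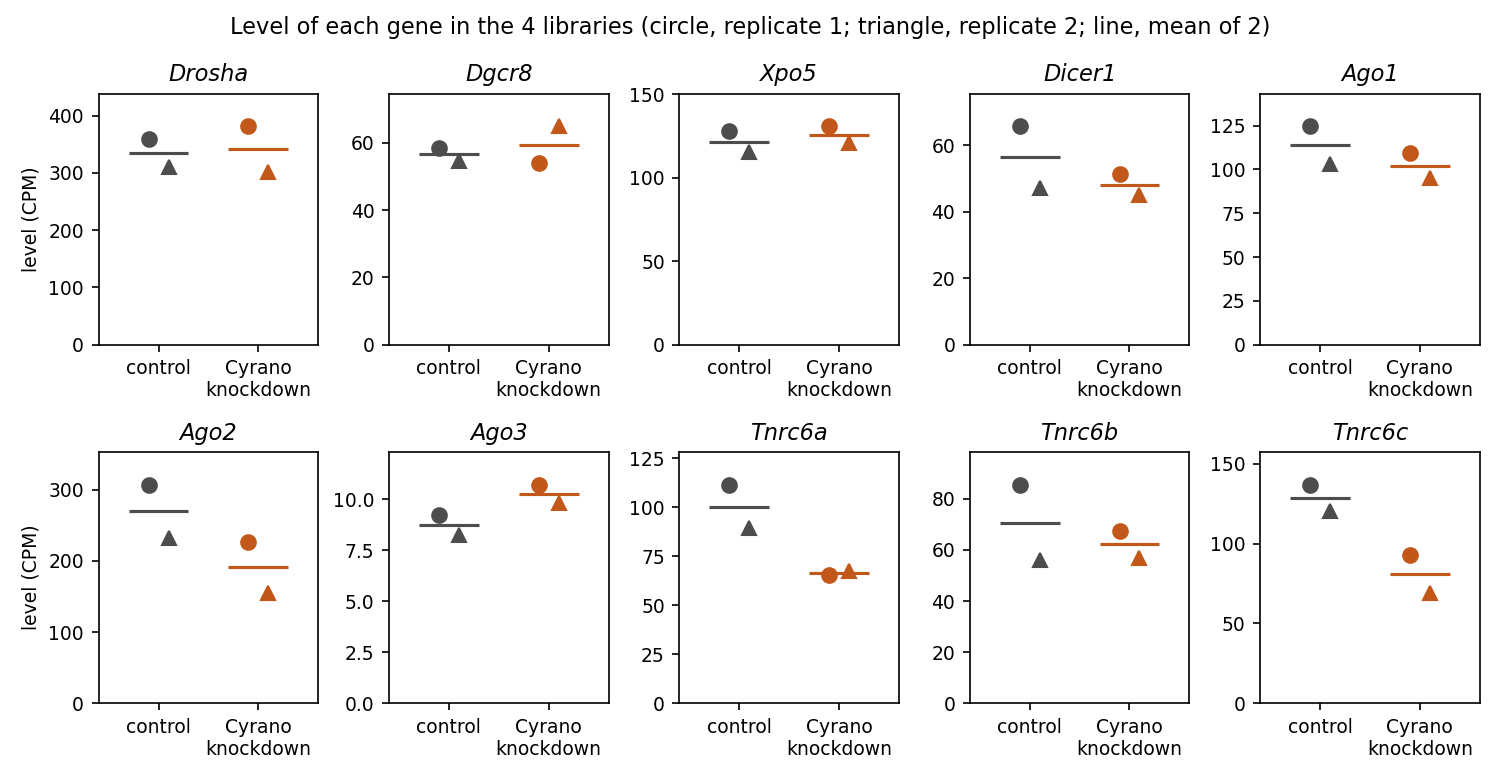
Level of each of the 10 genes (vertical axis, CPM from 0, a separate scale per panel) in control and knockdown libraries. Circles are replicate 1, triangles replicate 2 and lines the mean of 2 libraries. The groups do not overlap for Ago2, Tnrc6a and Tnrc6c, which are lower after knockdown, and for Ago3, which is higher.

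No member was called after Cyrano knockdown by edgeR's quasi-likelihood test (0 of 10 at an adjusted p under 0.05), against a background of 0.0833% of 13199 tested genes. The test called Cyrano, but for the machinery it left wide intervals. In 3 of 10 members, Tnrc6c, Tnrc6a and Ago2, the level was lower with an unadjusted p under 0.05, against 5.43% of all tested genes, and in 0 of 10 it was higher, against 6.18%. Both knockdown libraries lay below both controls for the same 3 members, against 21.3% of tested genes, and above both controls for Ago3 alone, against 22.3%. The median log2 fold change of the 10 was -0.17, beside -0.002 over all tested genes. Without control library 1 this median was 0.07, without control library 2 it was -0.37, and without knockdown library 2 it was -0.06. DESeq2 called 1 member, Tnrc6c, limma-voom called 0, and edgeR on the unfiltered table called Tnrc6a and Tnrc6c. Of 9752 genes with an adjusted p, DESeq2 called 71 higher and 62 lower. The unfiltered fit called 174 higher and 158 lower of 17005 genes, and limma-voom 1 higher and 2 lower of 13199.

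The first step of the pathway showed little difference. Drosha (chr15:12824815-12935291, plus strand, on GRCm38, as are all gene positions below), the nuclease of the Microprocessor, was at 359 and 309.9 CPM in the controls and at 381 and 302 CPM after knockdown. The knockdown libraries lay on both sides of the controls, with means of 334 ± 34.6 CPM in the controls and 342 ± 56.1 CPM after knockdown (SD, n = 2 each). The log2 fold change was 0.03 ± 0.16 (SE), with a 95% interval of -0.31 to 0.37 (edgeR adjusted p = 0.97).

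Dgcr8 (chr16:18253948-18289246, minus strand), which encodes the partner that anchors the hairpin and whose own message holds hairpins cut by the Microprocessor, was at 58.6 and 54.7 CPM in the controls and at 54.1 and 65.0 CPM after knockdown. One knockdown library lay below both controls and the other above both. Its log2 fold change was 0.07 ± 0.16, with an interval of -0.28 to 0.42 (edgeR adjusted p = 0.91). In the GRCm38 annotation 825 exonic bases of Dgcr8 lie opposite exons of Trmt2a, and although the libraries keep strand, no source used here says whether counting used it, so reads of the pair may be mixed.

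Xpo5 (chr17:46202782-46243598, plus strand), the exporter of precursor hairpins, was at 128 and 115 CPM in the controls and at 131 and 121 CPM after knockdown, so that the groups overlapped. Its log2 fold change was 0.05 ± 0.14, with an interval of -0.26 to 0.36 (edgeR adjusted p = 0.93). For these 3 nuclear-step genes the intervals reach no further than 0.42 on the log2 scale in either direction, and the direction of each turned when single libraries were left out.

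Dicer1 (chr12:104687742-104751952, minus strand), which encodes the nuclease that cuts the exported hairpin, was at 65.8 and 47.3 CPM in the controls and at 51.4 and 44.99 CPM after knockdown. Control library 1 was the high value, and control library 2 lay between the knockdown libraries. The means were 56.5 ± 13.1 and 48.2 ± 4.53 CPM (SD, n = 2 each), a log2 fold change of -0.23 ± 0.19 with an interval of -0.63 to 0.18 (edgeR adjusted p = 0.67). Without control library 1 it was 0.03, and without control library 2 it was -0.45.

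Among the Argonautes, Ago2 (chr15:73095844-73184935, minus strand) encodes the member with a well-characterised slicing activity in mammals. Its level was at 307 and 232 CPM in the controls and at 226 and 155 CPM after knockdown. Both knockdown libraries lay below both controls, but knockdown library 1 was close to control library 2. The means were 269.6 ± 53.0 and 191 ± 50.2 CPM (SD, n = 2 each). The log2 fold change was -0.50 ± 0.20, with an interval of -0.93 to -0.07, and it was not called (edgeR adjusted p = 0.36). Without knockdown library 1 it was -0.80 and called (adjusted p = 0.032). Without knockdown library 2 it was -0.25 (0.94 adjusted), and without control library 1 it was -0.28 (0.83 adjusted). In the annotation 219 exonic bases of Ago2 lie opposite exons of Chrac1.

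Ago1 (chr4:126435012-126468583, minus strand) was at 125 and 103 CPM in the controls and at 109 and 94.8 CPM after knockdown, with overlapping groups and a fitted log2 difference of -0.16 ± 0.16 (interval -0.49 to 0.18, edgeR adjusted p = 0.74). Ago3, its neighbour (chr4:126331704-126429556, minus strand), was scarce, with 152 and 156 reads in the controls and 239 and 211 after knockdown, or 9.24 and 8.26 against 10.7 and 9.80 CPM. Both knockdown libraries lay above both controls, by less than the test could call: the log2 fold change was 0.23 ± 0.26, with an interval of -0.33 to 0.78 (edgeR adjusted p = 0.77). Ago4, which is no member, had 2 and 9 reads in the controls and 11 and 18 after knockdown and was too low to test. The 4 genes share sequence, but their reads were counted apart as far as alignments were unique.

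Within the Argonaute family the length-scaled shares of the 4 genes did not overlap between the groups. Levels did not overlap in 21.3% of tested genes (lower) and 22.3% (higher), and no such background was taken for shares. Ago2 and Ago1 made up nearly all of the family, so their shares mirror each other. Ago2 made up 55.5% and 53.1% of the family's RPKM in the controls, against 50.9% and 44.8% after knockdown. Ago1 made up 43.0% and 44.98% in the controls, against 46.8% and 52.2% after knockdown. In a two-sided exact permutation test the difference in the share of Ago2 or of Ago1 had p = 0.333, the smallest that this test allows with 2 libraries against 2. Any groups that do not overlap reach this p, so the test adds nothing to the non-overlap. Ago3 made up 1.48% and 1.67% in the controls, against 2.13% and 2.50% after knockdown, so its shares did not overlap either. The few reads of Ago4 made up 0.046% and 0.230% in the controls, against 0.234% and 0.509% after knockdown.

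The TNRC6 scaffolds held the members with the largest differences. Tnrc6c (chr11:117654289-117763439, plus strand) was at 137 and 120.3 CPM in the controls and at 92.6 and 69.0 CPM after knockdown. The groups were well apart, although the knockdown libraries differed between themselves more than the controls did. The means were 129 ± 11.7 and 80.8 ± 16.7 CPM (SD, n = 2 each), 1.59-fold lower after knockdown by the fit. The log2 fold change was -0.67 ± 0.17, with an interval of -1.03 to -0.31, and it was not called (edgeR adjusted p = 0.17).

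By DESeq2 the adjusted p of Tnrc6c was 0.047, so it was called there. On the unfiltered table edgeR gave 0.0049, and without knockdown library 1 it gave -0.90 on the log2 scale with an adjusted p of 0.010. Without knockdown library 2 the log2 fold change was -0.47 (adjusted p = 0.62).

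Tnrc6a (chr7:123123885-123195296, plus strand) was at 112 and 89.3 CPM in the controls and at 65.3 and 67.5 CPM after knockdown. The knockdown libraries were close together, and both lay below control library 2, the lower of the controls. The means were 100.4 ± 15.8 and 66.4 ± 1.52 CPM (SD, n = 2 each), a log2 fold change of -0.60 ± 0.16 with an interval of -0.94 to -0.25. It was not called (edgeR adjusted p = 0.18), nor by DESeq2 (0.070) or limma-voom (0.20). When genes of low count were kept in the fit, edgeR called it (adjusted p = 0.023).

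Tnrc6b (chr15:80711313-80941085, plus strand), the third paralog, was at 85.5 and 55.9 CPM in the controls and at 67.6 and 56.9 CPM after knockdown. Both knockdown values lay between the controls. Its log2 fold change was -0.18 ± 0.20, with an interval of -0.62 to 0.25 (edgeR adjusted p = 0.76), and without control library 1 it was 0.15. The interval of Tnrc6b overlaps those of Tnrc6a and Tnrc6c. Summed over the 3 paralogs, the controls had 334 and 266 CPM, against 226 and 193 CPM after knockdown. The share of Tnrc6b in the family's RPKM was 14.8% and 11.9% in the controls, against 17.8% and 17.3% after knockdown. Its exact two-sided permutation p was again 0.333, the smallest possible, which any shares that do not overlap would give. The shares of Tnrc6a and Tnrc6c overlapped between the groups.

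**Figure D2:**
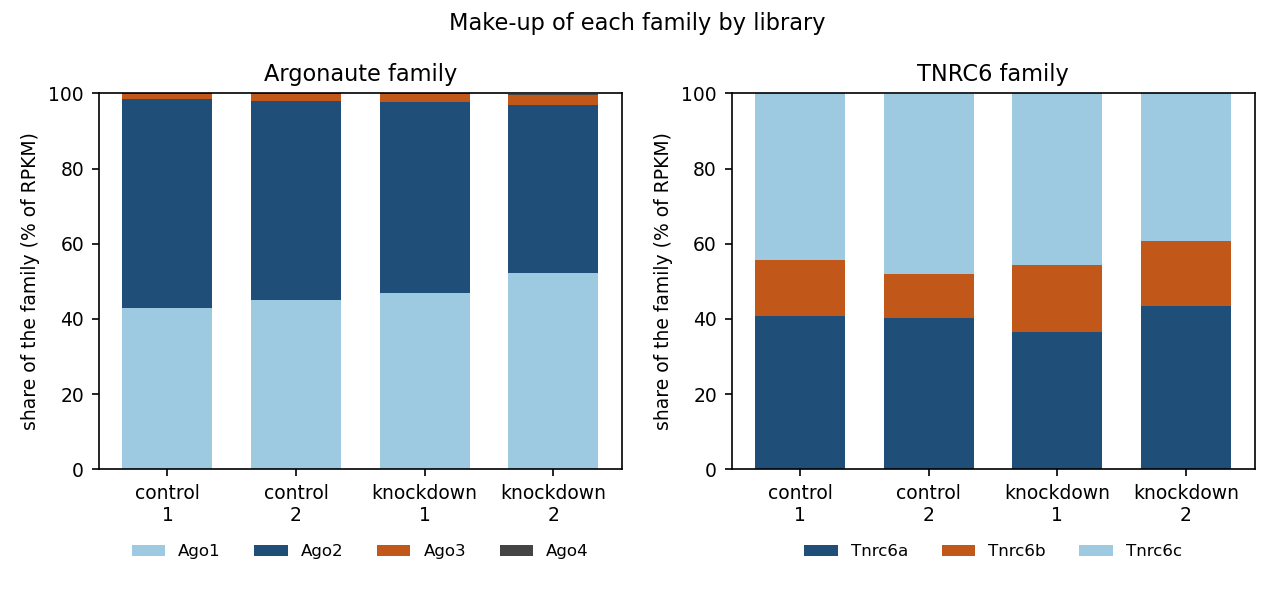
Share of each paralog in the summed RPKM of its family (vertical axis, percent from 0 to 100) in each library, for the 4 Argonautes and the 3 TNRC6 genes. The Ago2 part is 55.5% and 53.1% in the controls against 50.9% and 44.8% in the knockdown libraries, and the Tnrc6b part is 14.8% and 11.9% against 17.8% and 17.3%.

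Tnrc6c, Tnrc6a and Ago2 were long transcripts, and long transcripts were lower in general, but Ago3, also long, was higher. Tested genes were split into 5 equal groups by exonic length. On the log2 scale the group medians ran from 0.13 for the shortest to -0.13 for the longest, which holds 7 members: the 3 TNRC6 genes, the 3 Argonautes and Dicer1. In that longest group 10.7% of genes were lower with an unadjusted p under 0.05, and 29.5% had both knockdown libraries below both controls. Of its genes, 6.75% had a lower log2 fold change than Tnrc6c, 8.66% than Tnrc6a and 13.4% than Ago2. Below Dicer1 were 37.0%, below Tnrc6b 43.3%, below Ago1 46.5% and below Ago3 84.6%. The members with the most exonic bases were Tnrc6b (17332) and Ago3 (15595), beside 8183 for Tnrc6a and 9245 for Tnrc6c.

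After an offset for length and GC content the median of the 10 members was -0.02. Tnrc6a was then at -0.54 ± 0.13 and Tnrc6c at -0.54 ± 0.13 on the log2 scale (edgeR adjusted p = 0.13 and 0.15), and Ago2 at -0.36 ± 0.14 (0.35), so these 3 kept an interval below 0 and none was called. Tnrc6b was then at -0.02 ± 0.14 and Ago1 at -0.02 ± 0.12. Drosha, Dgcr8 and Xpo5, in the fourth group by length with a group median of -0.06, were at 0.13 ± 0.14, 0.11 ± 0.14 and 0.15 ± 0.12 with the offset.

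**Figure D3:**
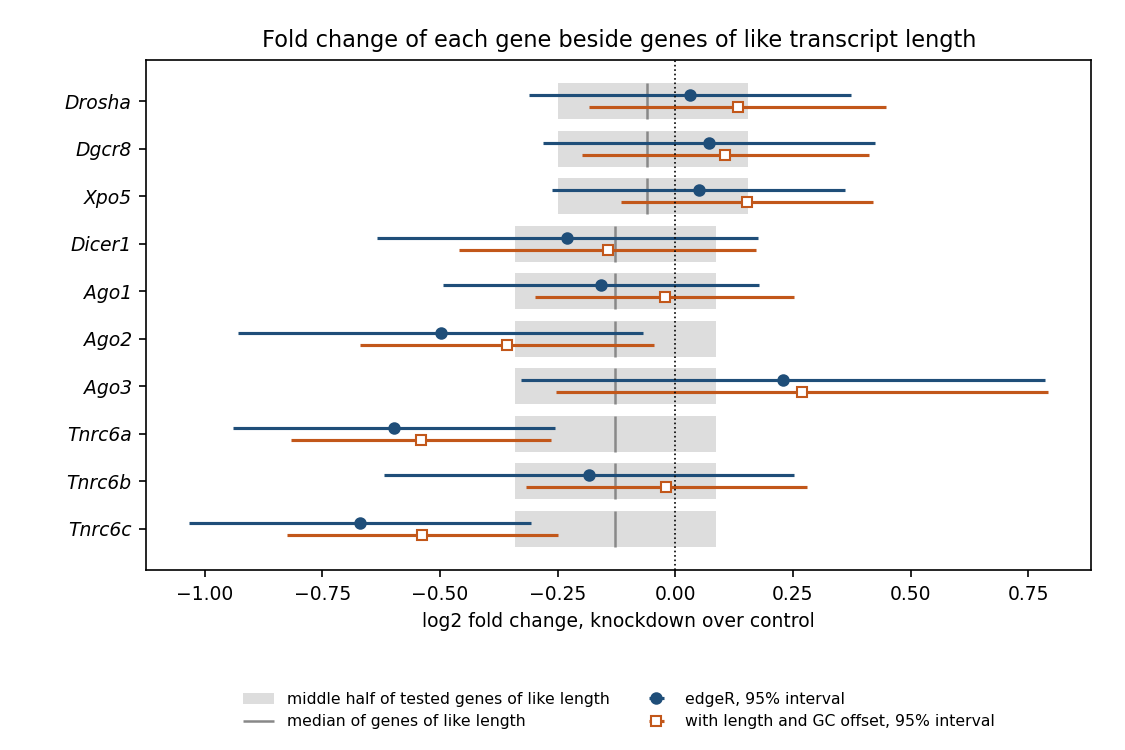
Log2 fold change of each gene, knockdown over control (horizontal axis), with its 95% interval, from the edgeR fit (filled circles) and from the fit with a length and GC offset (open squares). Grey bars run from the lower to the upper quartile of tested genes in the same of 5 groups by exonic length, with a line at their median. In both fits the intervals of Ago2, Tnrc6a and Tnrc6c lie below 0 and those of the other 7 genes cross it.

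The members also differed between libraries of 1 group in a common direction. Control library 2 was below control library 1 in 10 of 10 members, with a median difference of -0.24 on the log2 scale, where 48.5% of all tested genes and 70.7% of the longest group were below. Knockdown library 2 was below knockdown library 1 in 8 of 10, with Tnrc6a and Dgcr8 the exceptions, where 49.4% of all tested genes and 58.3% of the longest group were below. Within-group differences of this size are of the order of the group differences of Dicer1, Ago1 and Tnrc6b. For Ago2, library 2 minus library 1 was -0.40 in the controls and -0.54 after knockdown, as large as its log2 fold change of -0.50. For Tnrc6c these differences were -0.19 and -0.42, beside a fold change of -0.67. Those of Tnrc6a were -0.32 and 0.05, beside -0.60.

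**Figure D4:**
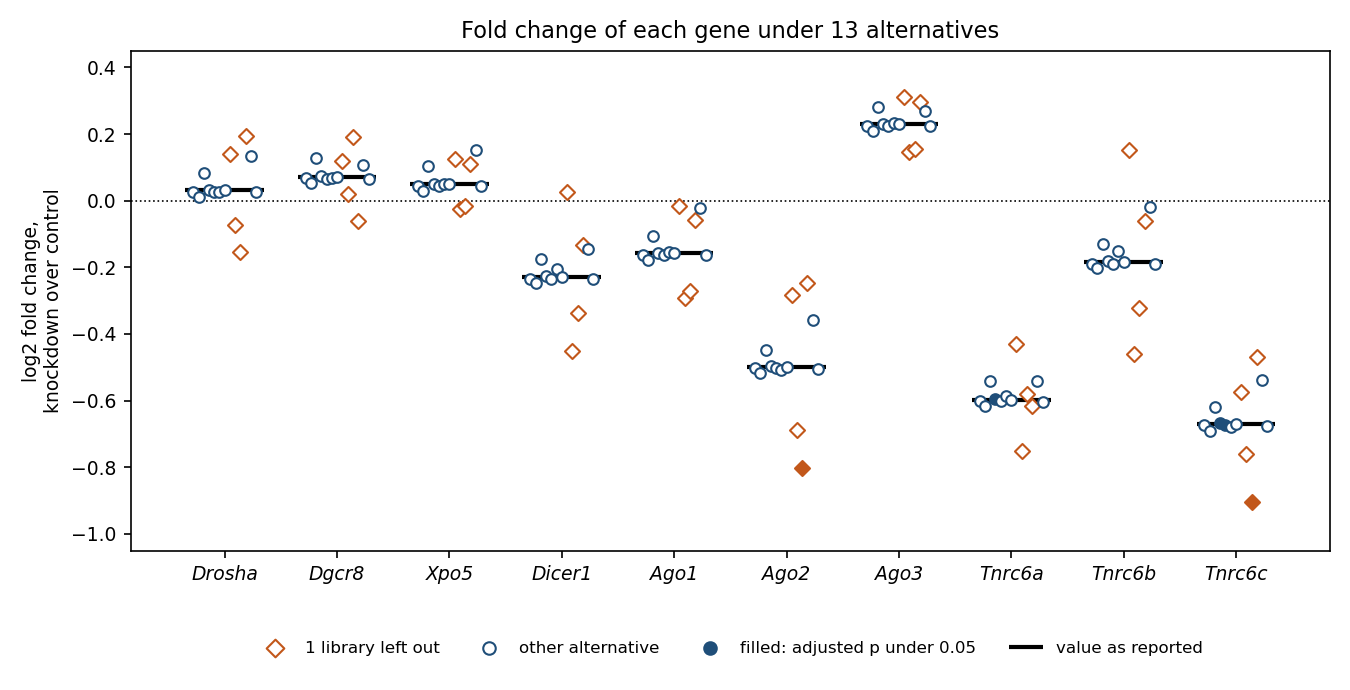
Log2 fold change of each gene, knockdown over control (vertical axis), as reported (black line) and under 13 alternatives to the processing. Diamonds leave out 1 library, circles change the tool, filter, scaling or offset, and filled marks have an adjusted p under 0.05. Tnrc6a, Tnrc6c, Ago2 and Ago1 stay below 0 and Ago3 above it throughout, while the other 5 genes have values on both sides of 0.

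Around the core machinery, 8 lists of pathway genes were read from the same fit. Of 15 nuclear cofactors, edgeR called 0. Unadjusted p values under 0.05 were found for 3 that were higher and 1 that was lower, against 6.18% and 5.43% of all tested genes. The list median was 0.01. The paralogous RNA helicases of the Microprocessor went opposite ways: Ddx5 had 1309 CPM in the controls and 1683 CPM after knockdown (log2 fold change 0.36 ± 0.15), and Ddx17 had 425 and 329 CPM (-0.37 ± 0.15). Neither was called (edgeR adjusted p = 0.36 and 0.37). Ddx17 (7643 exonic bases) is in the longest of the 5 length groups, whose median was -0.13. Ddx5 (3559) is in the middle group, whose median was 0.003, and the part of length in this contrast was not tested. Hnrnpa1, which encodes a protein that binds some primary microRNA hairpins, was at 0.40 ± 0.17 (0.38), and since it has many processed copies its count is uncertain.

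Of 13 tested genes for the partners of DICER1 and the chaperones that load Argonaute, 0 were called and the median was 0.06. On the log2 scale 10 of them lay above 0, beside 6575 of 13199 tested genes. The double-stranded RNA-binding partners of DICER1 were Tarbp2, at 135 CPM in the controls and 151 CPM after knockdown (0.16 ± 0.14), and Prkra, at 9.63 and 14.3 CPM (0.57 ± 0.25, edgeR adjusted p = 0.39). The HSP90 co-chaperone genes Ptges3 and Cdc37 were at 0.36 ± 0.15 (0.39) and 0.16 ± 0.14 (0.71).

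Cyrano is known in mouse as an RNA that directs the destruction of miR-7, a process that uses the ubiquitin ligase receptor ZSWIM8. Zswim8 itself was at 93.0 CPM in the controls and 95.1 CPM after knockdown, a log2 difference of 0.03 ± 0.14 (edgeR adjusted p = 0.96). Of the 9 genes for this ligase and its partners, 8 lay above 0 on the log2 scale, beside 6575 of 13199 tested genes, the median was 0.20, and 0 had an unadjusted p under 0.05. Tceb2 (537 exonic bases) and Nedd8 (824) are in the shortest of the 5 length groups, whose median was 0.13, and the part of length in the list's median was not tested. The lowest p values were those of Tceb1 (0.39 ± 0.19) and Tceb2 (0.25 ± 0.15), which encode the elongins C and B, and of the neddylation enzyme gene Ube2f (0.31 ± 0.19).

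Of 14 genes for tailing and decay of microRNAs and their precursors, 0 were called and the median was 0.05. Pnpt1, a mitochondrial exoribonuclease gene, was at 0.43 ± 0.15 (edgeR adjusted p = 0.28). Dis3l2, whose product degrades uridylated let-7 precursors, was at -0.56 ± 0.23 (0.36). Eri1, an exoribonuclease gene, was at 0.27 ± 0.15 (0.50).

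Downstream of TNRC6, the 17 deadenylation genes had a median of -0.02, and 0 were called. Cnot7, a catalytic subunit gene of the CCR4-NOT complex, was at 57.0 CPM in the controls and 82.8 CPM after knockdown (0.54 ± 0.16, edgeR adjusted p = 0.22). Its partner nuclease gene Cnot6 was at 0.32 ± 0.16 (0.48), and the scaffold-binding subunit gene Cnot2 at -0.30 ± 0.17 (0.52).

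Of 26 genes for decapping and translational repression, 1 was called, Lsm5, a subunit gene of the LSM ring, which rose from 51.5 to 99.1 CPM (0.94 ± 0.15, edgeR adjusted p = 0.047). That call did not hold with the length and GC offset (0.58, adjusted p = 0.24) or by limma-voom (0.071). It was also lost without control library 1 (0.17) or control library 2 (0.15), with RLE factors (0.052) and without robust estimation (0.076). Gigyf2, which encodes a repressor that binds the cap-binding protein 4EHP, was at 131 CPM in the controls and 95.3 CPM after knockdown (-0.46 ± 0.15, adjusted p = 0.24). The decapping activator gene Patl1 was at -0.46 ± 0.17 (0.32). In all, 4 of the 26 were lower and 2 higher with an unadjusted p under 0.05. Over all tested genes these shares were 5.43% and 6.18%, and 0.0833% were called.

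**Figure D5:**
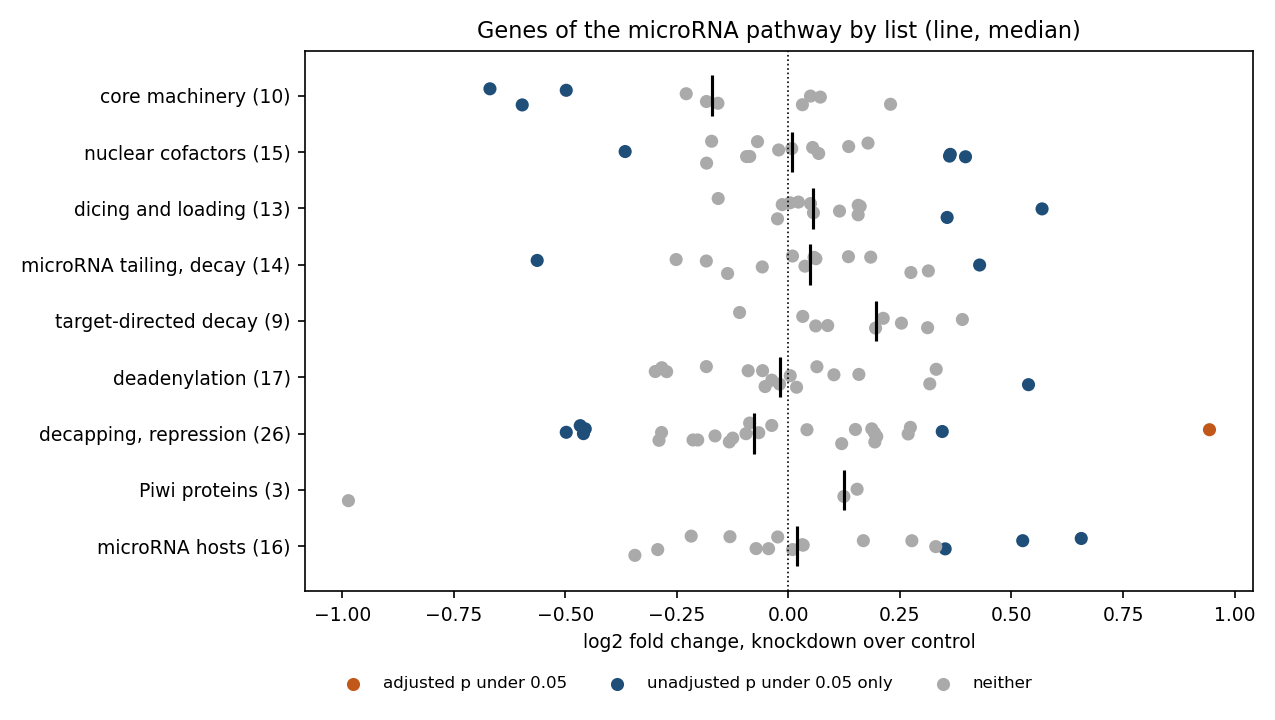
Log2 fold change, knockdown over control (horizontal axis), of the tested genes of the core machinery and of 8 lists around it, with the number of genes in brackets and a black line at each median. Orange marks an adjusted p under 0.05, which is Lsm5 alone, blue an unadjusted p under 0.05, and grey neither. The medians of the lists other than the core lie between -0.08 and 0.20.

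The Piwi genes, relatives of the Argonautes that act in the germline, were not called: Piwil2 was at 47.0 CPM in the controls and 52.2 CPM after knockdown, and Piwil1 and Piwil4 were under 3 CPM in both groups. Their log2 fold changes were 0.15 ± 0.20, -0.99 ± 0.56 and 0.12 ± 0.48 (edgeR adjusted p = 0.80, 0.52 and 0.96). Of 16 tested host transcripts of microRNAs, 0 were called, with a median of 0.02. Hnrnpk, host of a miR-7a copy, was at 1055 CPM in the controls and 1278 CPM after knockdown (0.28 ± 0.15, edgeR adjusted p = 0.50). The imprinted hosts Mirg and H19 were at 0.66 ± 0.20 (0.24) and 0.53 ± 0.17 (0.25), and Smc4, host of a miR-16 copy, at 0.35 ± 0.15 (0.37).

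The hairpin rows of the files gave little. Of 621 microRNA rows, 76 had a read in any library, 8 were tested and 0 were called by edgeR. The 3 rows of miR-7 (Mir7-1, Mir7-2 and Mir7b) and the 7 rows of the stem-cell cluster from Mir290 to Mir295 were at 0 reads in each library. A count of 0 allows up to 3 counts, or 0.134 to 0.182 CPM depending on the library, for counting error only. These rows count reads at the hairpins and say nothing of the level of the host transcripts, such as Hnrnpk.

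The profile over the 4 libraries most like that of Tnrc6c, the member with the lowest unadjusted p, was that of Tacc2, at a distance of 0.0335 (Euclidean, on centred log2 CPM). Rps6ka2 followed at 0.0351 and Ercc6 at 0.0684. Among the 8377 genes compared, those with a mean of at least 10 CPM, 6 lay within 0.1. With 4 libraries such a likeness is a description.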

How the data were processed

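The authors deposited raw read counts per gene symbol, 1 file per library, with no normalization. Build mm9 and the tools HTSeq, TopHat, bedtools and SAMtools are listed per the submitters' processing notes. Their versions, the annotation and the use of strand were not stated in any source used. In each file 5 closing tallies name no gene and were left out: as a share of tallied reads, reads outside genes were 6.39% to 7.61%, ambiguous reads 0.459% to 0.600% and reads without a unique alignment 26.1% to 32.8%. The last of these shares was lower in both knockdown libraries (28.7% and 26.1%) than in both control libraries (32.8% and 30.2%). Rn45s, a row kept in the gene counts, likewise had a smaller share with knockdown (12.3% and 11.0%) than without (17.5% and 15.9%). A fit without Rn45s and Lars2 called 0 members, with a members' median of -0.177. The part of reads without a unique alignment was not tested.

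Counts were tested across all 13199 genes kept by filterByExpr (minimum count 10) with edgeR 4.0.16 in R 4.3.3: TMM factors, robust glmQLFit and glmQLFTest on group alone, two-sided, with Benjamini-Hochberg adjustment and a threshold of 0.05. Alternatives were DESeq2 1.42.0, limma 3.58.1 (voom), other scalings, no filter, a replicate block, a length and GC offset and leaving out each library. The fit was tested on simulated data. A standard error is the size of the log2 change divided by the root of its F. The submitters call the libraries biological replicates, but how cultures were separated is not given, so p-values speak only of spread among these 4 libraries, which may be technical. The kit and enrichment of each library are not given and could not be entered.

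Exon lengths, GC content, 3′ UTRs and coordinates came from GENCODE M21 (GRCm38), matched by symbol for 98.3% of symbols. No coordinates of the files' build were used. The offset was a loess (span 0.5) of each library's deviation on log2 exonic length and GC content. As a check for duplicate deposits of 1 library, replicates were compared by chi-square per degree of freedom (25.4 in controls and 20.5 after knockdown). This does not show that cultures were separate. MicroRNA sequences are from RefSeq (GRCm38.p6). A list is described by counts and a median, with no test of its own. Named genes are Cyrano, the 10 members, Ago4, Zswim8, Hnrnpk, Tarbp2 and Lsm5, and in each list those called and the 3 lowest p values. Trmt2a, Chrac1 and Gm45846 were named for overlap, and Rn45s and Lars2 as rows left out of an alternative fit. The members and lists were chosen with earlier results of these data known.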

Additional observations from a re-analysis of the deposited data

Results flagged for a closer look

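Reads tallied as ambiguous, which are left out of every gene's count, made up a mean of 0.584% of tallied reads after knockdown and 0.486% in the controls, and both knockdown libraries lay above both controls. This signal lies outside the gene counts. Its part in the counts of members whose exons overlap other genes was not tested. In the GRCm38 annotation these are Dgcr8, Ago2, Tnrc6a, Tnrc6b and Drosha. The overlap of Tnrc6a is with Gm45846, over 143 bases on the same strand. Ambiguous reads were not the only tally to separate the groups. Reads without a unique alignment were a smaller share in both knockdown libraries than in both control libraries.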

How the results depend on the processing

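The number of members called, 0, was 1 with DESeq2, 2 with no filter on low counts, and ranged from 0 to 2 over left-out libraries. Replicate numbers mark no shared culture in the labels. Same-numbered libraries deviated together (correlation 0.29), but with only 2 pairs this does not pair them. With a replicate block 3 members were called (955 genes in all). With the block and the length and GC offset 2 members were called (255 genes higher and 220 lower in all). The members' median of -0.17 was -0.0207 with that offset, -0.0182 with offset and block, and from -0.371 to 0.0734 over left-out libraries. Cyrano's fold change missed the threshold in limma-voom (-2.42, adjusted p = 0.051) and ranged from -2.79 to -2.08 over left-out libraries, not called without control library 1 (0.12) or 2 (0.057). Directions turned only in leave-1-out fits, none of them called: the ranges were -0.46 to 0.15 for Tnrc6b, -0.45 to 0.0271 for Dicer1, -0.15 to 0.19 for Drosha, -0.0621 to 0.19 for Dgcr8 and -0.0245 to 0.12 for Xpo5. Counts of genes called over all genes were 5 higher and 6 lower, and 71 and 62 with DESeq2, 1 and 2 with limma-voom, 10 and 16 with upper-quartile factors, 174 and 158 with no filter, 1 and 3 without robust estimation, 3 and 4 after offsetting length and GC, 2 and 4 with RLE factors, and 32 and 18 with library size only, where genes higher were 66.9% of those at an unadjusted p under 0.05, beside 53.2%. Leaving out a library gave 0 and 1 (control 1), 0 and 0 (control 2), 61 and 131 (knockdown 1), and 32 and 17 (knockdown 2). The cause of these changes was not tested. Depth limits Ago3, the member with the fewest reads.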
